A study of Mus musculus with 18 samples.

Results

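The transcripts of the IKK kinases and the TRAF adaptors, 10 genes chosen by symbol (Map3k14, Chuk, Ikbkb, Ikbkg, Ikbke, Tbk1, Traf1, Traf2, Traf3 and Traf6), were followed in macrophages with and without the transcription factor IRF5. All 10 symbols mapped to 1 row each of the 50600 gene rows in the RNA-seq count table, and all 10 passed the filter on low counts that left 15663 genes for testing. In wild-type (WT) cells LPS raised Traf1, Ikbke, Tbk1, Traf6 and Ikbkb and lowered Map3k14. These were 6 of the 10 genes, beside 41.8% of all tested genes that passed the test. Defactinib, an inhibitor of the tyrosine kinases PYK2 and FAK, lowered Traf1, Traf2, Tbk1 and Ikbke in WT cells given LPS. These were 4 of the 10 genes, beside 57.0% of all tested genes that passed. In IRF5 KO cells 1 of the 10 genes, Map3k14, passed the test for defactinib, beside 3.36% of all tested genes, and it did not pass in 13 of 18 fits that left 1 library out. With all 18 libraries the difference in this effect between the genotypes passed for Tbk1, Traf2 and Map3k14, and not for Traf1 or Ikbke.

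In the canonical NF-κB pathway, receptors such as TLR4 recruit TRAF adaptors, most of which are ring-finger proteins. Ubiquitin chains built at these complexes bring together the TAK1 kinase and the IKK complex, in which the kinases IKKα (Chuk) and IKKβ (Ikbkb) are held by the regulatory subunit NEMO (Ikbkg), and IKKβ then marks IκB proteins for destruction. In the non-canonical pathway the kinase NIK (Map3k14) activates IKKα and is kept low by a complex that holds Traf2 and Traf3. The related kinases TBK1 (Tbk1) and IKKε (Ikbke) phosphorylate interferon regulatory factors such as IRF3 and IRF7.

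Bone marrow-derived macrophages (BMDMs) were grown from mouse bone marrow for 8 days with GM-CSF, and their transcripts were measured by mRNA sequencing. There were 6 groups of 3 libraries, described as biological replicates. WT and IRF5-/- cells (IRF5 KO below) were each left unstimulated, given DMSO for 1 h and then LPS at 100 ng/ml for 2 h, or given defactinib at 3.5 μM for 1 h and then LPS at the same dose and time. The sample labels give DMSO as the treatment of the unstimulated libraries, whereas their columns in the count table are marked UT, so whether they received the vehicle is not settled. There was no group with defactinib alone. The methods give an age for purchased C57BL/6J males without tying it to these cultures, and the labels do not say whether marrow was pooled, so the p-values measure the spread between these libraries.

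Each library held between 39282181 and 61949143 counted read pairs, and the members' own counts ran from 271 (Map3k14) to 17650 (Traf1) pairs per library. Levels are given as CPM, read pairs scaled to the library total and its TMM factor, and levels of different genes are compared only as RPKM, which also divides by exon length. Macrophage markers were present in every group, with a summed level of 9804 to 21271 CPM over 10 genes of which Lyz2 was the most abundant. T, B and NK cell markers summed to 0.8535 to 3.373 CPM over 9 genes. Several marker sums moved with LPS. Neutrophil markers (7 genes) summed to 53.89 to 70.53 CPM in unstimulated WT libraries and 77.88 to 146.3 CPM in WT libraries after LPS with DMSO, mast cell and basophil markers (7 genes) to 11.58 to 12.97 and 38.44 to 49.82 CPM, macrophage markers to 13574 to 14070 and 9804 to 10233 CPM, and dendritic cell markers (7 genes) to 2637 to 2745 and 2385 to 2467 CPM. Most of the move of the mast cell and basophil sum was in Hdc (mean 0.609 and 30.0 CPM), while Gata2 had means of 3.60 and 3.17 CPM and Kit of 7.67 and 8.11 CPM. With defactinib after LPS in WT the mast cell and basophil sum was 9.908 to 32.98 CPM (mean of Hdc 9.37 CPM), the dendritic cell sum 2291 to 2873 CPM and the macrophage sum 12597 to 16780 CPM, and in IRF5 KO the macrophage sum was 19027 to 19912 CPM against 13832 to 14277 CPM with DMSO. In IRF5 KO cells the neutrophil sum was 67.10 to 78.24 CPM unstimulated and 113.6 to 142.4 CPM after LPS with DMSO, and the unstimulated macrophage sum was 16758 to 21271 CPM. Lyz2 and Itgax carried the macrophage and dendritic cell sums. With defactinib in WT every other macrophage marker but Cd14 and Mertk had a higher mean than with DMSO, as Lyz2 did. Examples were Adgre1 (79.9 to 201 CPM), Cd68 (248 to 368 CPM) and Csf1r (504 to 665 CPM). Of the dendritic cell markers Clec9a (4.22 to 9.43 CPM) and Flt3 (1.79 to 2.10 CPM) rose with Itgax, whereas Ccr7, Zbtb46, Cd209a and Xcr1 fell. From LPS DMSO to LPS defactinib the mean went from 263 to 22.2 CPM for Ccr7, 77.3 to 24.5 for Zbtb46, 329 to 98.9 for Cd14 and 127 to 46.4 CPM for Mertk, against 2080 to 2580 for Itgax and 6948 to 10823 CPM for Lyz2. The part of these lists in the results was not tested. Reads over Irf5, the gene named as knocked out, were counted at 335 to 397 CPM in unstimulated IRF5 KO libraries against 587 to 650 CPM in unstimulated WT libraries. The difference was 0.75 ± 0.16 on the log2 scale (SE, adjusted p = 0.00492), and a count over all exons does not show whether the transcript is intact, so it does not check the labels. After LPS with DMSO Irf5 lay at 434 to 475 CPM in WT and 345 to 435 CPM in IRF5 KO (log2 0.16 ± 0.16, adjusted p = 0.428), and in WT it fell by 0.45 with LPS (adjusted p = 0.0382) and by 0.71 with defactinib (adjusted p = 0.00182). After LPS and defactinib it lay at 213 to 379 CPM in WT and 353 to 392 CPM in IRF5 KO, and the groups overlapped (log2 -0.42 ± 0.16, adjusted p = 0.0545). Irf5 passed neither within IRF5 KO cells nor in the interactions with all 18 libraries. Ptk2b, which encodes PYK2, lay at 162 to 172 CPM in WT LPS DMSO and 101 to 122 CPM in WT LPS defactinib libraries (log2 -0.62 ± 0.09, adjusted p = 2.44e-05).

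One library stood apart. IRF5 KO LPS DMSO replicate 3 correlated with its group at r = 0.932 over log2 CPM of all tested genes, whereas replicates 1 and 2 of that group correlated at 0.992. For Map3k14 it read 81.4 CPM against 11.5 and 11.1 CPM in the other two, for Traf2 50.7 CPM against 14.4 and 12.6 CPM, and for Traf6 58.7 CPM against 183 and 182 CPM. Its values for these 3 genes were nearer to the unstimulated IRF5 KO libraries than to its own group. For Traf1 it did not lie near the unstimulated libraries (72.8 to 88.2 CPM), with 238 CPM against 110 and 111 CPM in its group. Whether its label is right was not tested. Results for members that use this group are therefore given with and without it. WT LPS defactinib replicate 3 differed less, with r = 0.971 and 0.977 to its group.

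Map3k14 (ENSMUSG00000020941, chr11:103219762-103267472), Chuk (ENSMUSG00000025199, chr19:44073335-44107480), Ikbkb (ENSMUSG00000031537, chr8:22659212-22706589) and Ikbke (ENSMUSG00000042349, chr1:131254343-131279606) lie on the minus strand of GRCm38 (mm10). Tbk1 (ENSMUSG00000020115, chr10:121546455-121586787), Traf1 (ENSMUSG00000026875, chr2:34941750-34961772) and Traf2 (ENSMUSG00000026942, chr2:25517982-25546940) lie on the minus strand too. Ikbkg (ENSMUSG00000004221, chrX:74393290-74453854), Traf3 (ENSMUSG00000021277, chr12:111166370-111267153) and Traf6 (ENSMUSG00000027164, chr2:101678429-101701669) lie on the plus strand. All are annotated as protein-coding, and the values are sums over all annotated exons. A stretch of 135 bases, 2.06% of the Map3k14 exons, overlaps 1700028N14Rik on the same strand. Exons of Ikbkg overlap G6pdx over 418 bases and those of Ikbke overlap Gm28913 and Gm28914 over 224 bases on the opposite strand, which the strand-specific counting of the authors separates.

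RefSeq promoter sequences (GRCm38.p6, 250 bases before to 50 bases after the annotated start) were found for 9 of the 10 genes, all but Ikbkb. The 4 genes that defactinib lowered in WT cells are shown, 5′ to 3′, with a match to the NF-κB-type pattern GGGNNNTTC in capitals.
Traf1, chr2:34961723-34962022, minus strand: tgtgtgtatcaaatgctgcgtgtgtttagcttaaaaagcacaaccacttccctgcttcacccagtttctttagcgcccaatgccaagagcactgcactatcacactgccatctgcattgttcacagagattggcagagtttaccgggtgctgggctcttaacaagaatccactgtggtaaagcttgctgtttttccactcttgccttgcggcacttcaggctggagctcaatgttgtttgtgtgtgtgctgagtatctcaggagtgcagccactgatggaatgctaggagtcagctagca
Ikbke, chr1:131279514-131279813, minus strand: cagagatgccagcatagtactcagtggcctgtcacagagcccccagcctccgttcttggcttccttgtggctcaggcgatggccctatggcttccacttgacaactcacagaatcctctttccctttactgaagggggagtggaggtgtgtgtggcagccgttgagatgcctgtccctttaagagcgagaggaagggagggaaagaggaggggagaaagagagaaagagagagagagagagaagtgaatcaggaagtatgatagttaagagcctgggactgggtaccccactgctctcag
Tbk1, chr10:121586745-121587044, minus strand: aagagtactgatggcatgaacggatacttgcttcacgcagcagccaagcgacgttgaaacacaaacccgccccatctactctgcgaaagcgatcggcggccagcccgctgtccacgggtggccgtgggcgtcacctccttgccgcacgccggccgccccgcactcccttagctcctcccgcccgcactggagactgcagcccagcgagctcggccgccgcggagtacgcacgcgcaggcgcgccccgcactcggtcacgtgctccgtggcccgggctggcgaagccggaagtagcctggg
Traf2, chr2:25546891-25547190, minus strand: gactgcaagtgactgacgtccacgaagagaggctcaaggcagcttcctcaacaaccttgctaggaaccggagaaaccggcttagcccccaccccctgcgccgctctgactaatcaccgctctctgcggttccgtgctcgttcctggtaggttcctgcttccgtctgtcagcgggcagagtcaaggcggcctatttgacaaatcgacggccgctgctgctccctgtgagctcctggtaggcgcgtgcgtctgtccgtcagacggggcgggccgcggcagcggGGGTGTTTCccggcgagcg
The pattern was searched on both strands and is present in 4587 of the 32851 promoters in the table. Of these 4 sequences only Traf2 held it, from base 31 to base 39 after the start. Chuk held GGGTGATTC from base -66 to -58 and Traf3 held GGGGATTTC from base -10 to -2, and neither Chuk nor Traf3 passed the test in any comparison below with all 18 libraries. The interferon-response pattern GAAANNGAA, present in 8.56% of promoters, was found in none of the 9 genes. Traf1 and Ikbke differed from the other single-start members in CpG number, with 4 CpG dinucleotides each in 300 bases, where the median of all promoters was 7. The 6 other genes with 1 listed start held between 19 (Traf6) and 59 (Traf3) CpG dinucleotides, among them Tbk1 with 37 and Traf2 with 28. Ikbkg has 4 listed starts with 0 to 15 CpG dinucleotides. The match and the CpG count describe these windows only.

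The per-library plot shows the levels on which the comparisons rest.

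**Figure D1:**
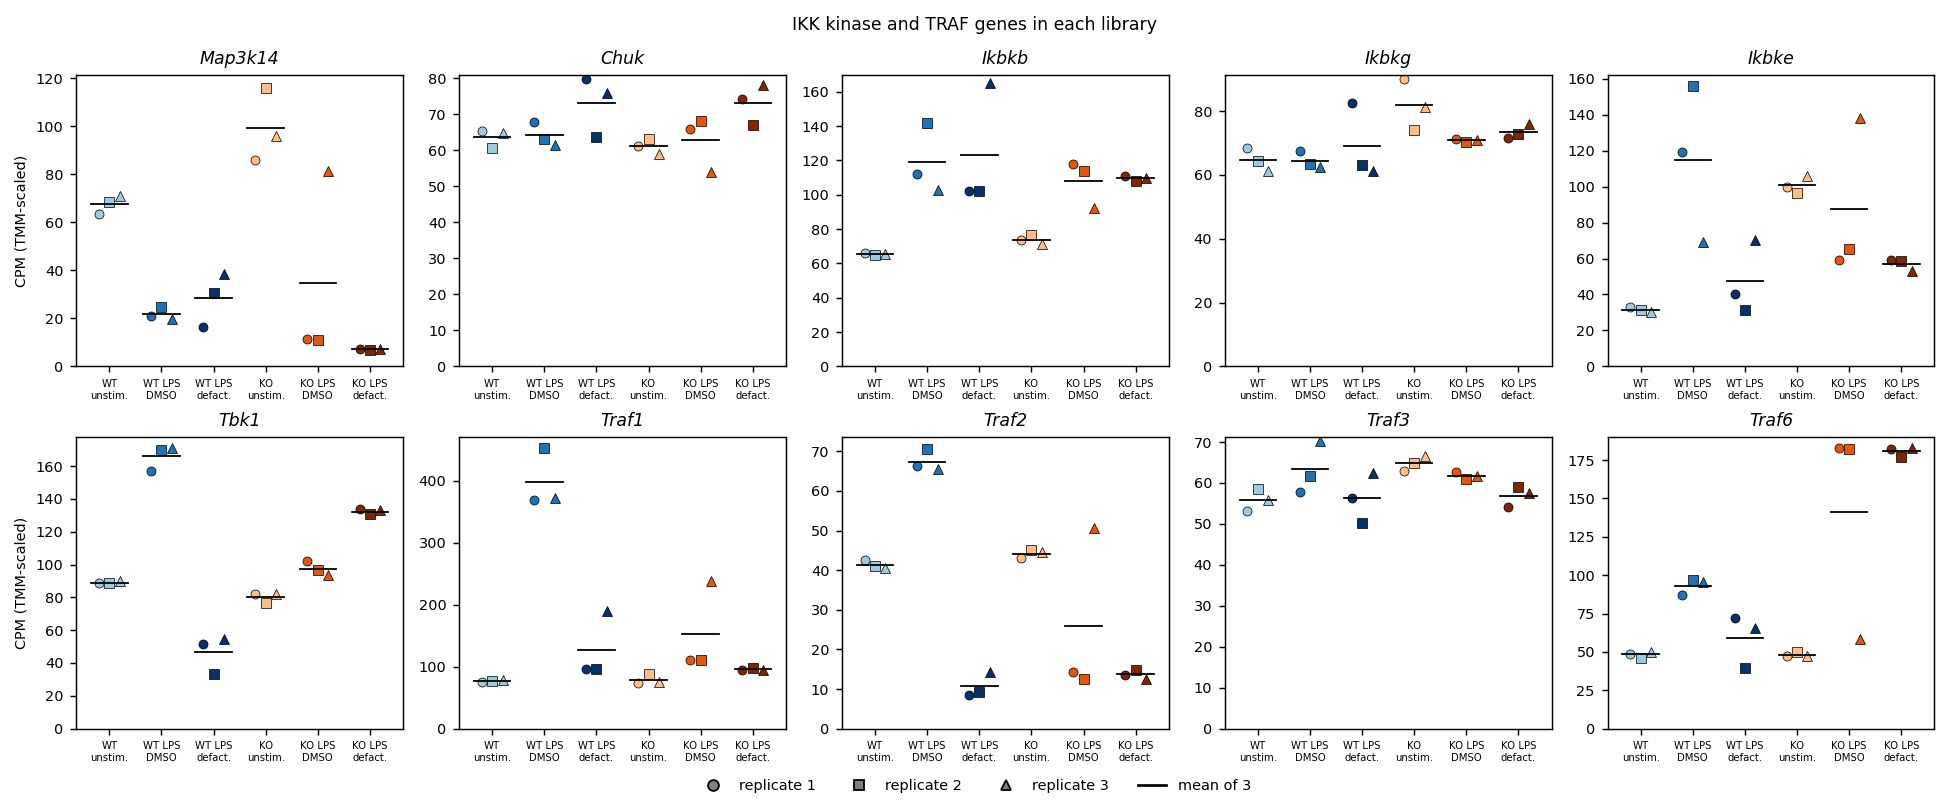
TMM-scaled CPM (y axis, linear, from 0) of each of the 10 genes in the 18 libraries by group (x axis), with 1 symbol per replicate and the mean of 3 as a line. Chuk, Ikbkg and Traf3 stay between 50.3 and 90.0 CPM in every library, whereas replicate 3 of IRF5 KO LPS DMSO lies away from the other two for Map3k14, Ikbke, Traf1, Traf2 and Traf6.

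Per length, the order of the genes differed between the groups. In unstimulated WT cells Tbk1 was the most abundant at 22.8 ± 0.208 RPKM (SD, n = 3), followed by Chuk at 12.5 ± 0.502 and Map3k14 at 10.3 ± 0.576 RPKM, and the lowest were Ikbke at 3.48 ± 0.151 and Ikbkb at 3.43 ± 0.0306 RPKM. The Ikbkb value is set by an annotated exon length of 19078 bases, the longest of the 10. After LPS with DMSO in WT cells Traf1 (45.1 ± 5.29 RPKM) and Tbk1 (42.4 ± 1.98 RPKM) led, and Map3k14 was the lowest at 3.31 ± 0.403 RPKM. After LPS and defactinib Traf2 was the lowest in WT cells (2.10 ± 0.625 RPKM) and Map3k14 in IRF5 KO cells (1.08 ± 0.0358 RPKM).

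The first comparison asked how LPS alone changed these transcripts in WT cells. Of the 10 genes, 6 passed the edgeR quasi-likelihood test at a false discovery rate of 0.05, 5 higher and 1 lower, beside 41.8% of all tested genes. With a fold change above 2 as well, 3 of the 10 were called, beside 21.3% of all tested genes. The median log2 fold change was 0.78 for the 10 genes and 0.00 for all genes.

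Among the adaptors, Traf1, which lacks the ring finger of the other TRAF proteins and is itself an NF-κB target, rose most. Traf1 read 75.7, 76.7 and 78.7 CPM in unstimulated WT libraries and 369, 452 and 372 CPM after LPS with DMSO. Every LPS library lay above every unstimulated one, and the fold change was 5.16 (log2 2.37 ± 0.29, SE, adjusted p = 9.49e-06). Traf6, the ubiquitin ligase that joins the TLR adaptor MyD88 complex to TAK1, went from 48.9, 46.3 and 49.8 CPM to 86.8, 97.0 and 95.2 CPM. The groups did not overlap and the log2 change was 0.94 ± 0.30 (adjusted p = 0.0196). Traf6 did not pass without WT unstimulated replicate 1 or 2 or WT LPS DMSO replicate 2, with an adjusted p of up to 0.0618, or when counts were scaled by library size alone (adjusted p = 0.0941). Traf2, the adaptor of TNF receptors, read 42.7, 41.1 and 40.5 CPM before and 66.2, 70.6 and 65.5 CPM after LPS. Its groups did not overlap, yet its log2 difference of 0.70 ± 0.37 did not pass the test (adjusted p = 0.147), in which 1 estimate of spread covers all 6 groups. Without IRF5 KO LPS DMSO replicate 3, a library outside this comparison, the same difference had an SE of 0.13 and an adjusted p of 2.47e-04.

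Among the kinases, Ikbke went from 32.9, 31.2 and 30.2 CPM to 119, 156 and 69.0 CPM. All 3 LPS libraries were above the unstimulated ones, with replicate 3 the lowest of them, and the fold change was 3.65 (log2 1.87 ± 0.34, adjusted p = 4.05e-04). Tbk1 rose 1.86-fold from 88.7, 88.5 and 90.0 CPM to 157, 170 and 171 CPM (log2 0.90 ± 0.13, adjusted p = 4.35e-05). Both kinases of the interferon branch thus rose, and Ikbkb of the canonical complex rose 1.82-fold from 64.9 to 66.0 CPM before LPS to 103 to 142 CPM after it (log2 0.86 ± 0.16, adjusted p = 4.90e-04). Map3k14 fell from 63.5, 68.5 and 71.0 CPM to 20.8, 24.7 and 19.6 CPM, with no overlap, a log2 change of -1.64 ± 0.56 and an adjusted p of 0.0287. Map3k14 did not pass when any 1 of these 6 libraries was left out (adjusted p up to 0.0840) or no filter was used (adjusted p = 0.0817), while the log2 change stayed between -1.75 and -1.57. Chuk (0.01 ± 0.10) and Ikbkg (0.00 ± 0.11) did not pass the test, and Traf3 (0.18 ± 0.09, adjusted p = 0.131) did not either.

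The same comparison in IRF5 KO cells gave 4 of 10 genes past the test, beside 37.5% of all tested genes, and 2 of 10 called, beside 13.3%. Without IRF5 KO LPS DMSO replicate 3 the numbers were 4 and 3, beside 58.3% of all tested genes that passed and 26.2% that were called. In a fit of these 2 groups alone none of the 4 genes passed (adjusted p from 0.0754 for Ikbkb to 0.228 for Map3k14). With library size alone Ikbkb and Traf1 did not pass (adjusted p = 0.121 and 0.0556), nor did Map3k14 with no filter (adjusted p = 0.123). Traf6 read 47.5, 49.7 and 47.1 CPM in unstimulated IRF5 KO libraries and 183, 182 and 58.7 CPM after LPS with DMSO. All 3 LPS libraries were above the unstimulated ones, replicate 3 only slightly, and the log2 change was 1.55 ± 0.31 (adjusted p = 0.00275), or 1.92 ± 0.16 (adjusted p = 2.14e-08) without replicate 3. Map3k14 fell from 86.0, 116 and 95.7 CPM to 11.5, 11.1 and 81.4 CPM, a log2 change of -1.51 ± 0.56 (adjusted p = 0.0452). Without replicate 3 the change was -3.14 ± 0.27 (adjusted p = 1.02e-07). The Map3k14 call with all 18 libraries was lost in 15 of the 18 fits that left 1 library out, those without WT LPS defactinib replicates 1 and 3 and IRF5 KO LPS DMSO replicate 3 being the exceptions, with an adjusted p of up to 0.168.

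Traf2 in IRF5 KO cells read 43.0, 45.1 and 44.6 CPM before LPS and 14.4, 12.6 and 50.7 CPM after it. Replicates 1 and 2 were below all unstimulated libraries and replicate 3 above them, and the log2 difference of -0.77 ± 0.37 did not pass the edgeR test (adjusted p = 0.112), though it did with limma-voom (-1.03, adjusted p = 0.0228). Without replicate 3 Traf2 fell, by 1.71 on the log2 scale (SE 0.16, adjusted p = 9.83e-08). Traf1 went from 72.8, 88.2 and 74.8 CPM to 110, 111 and 238 CPM, and its log2 change of 0.96 ± 0.28 passed the test with replicate 3 (adjusted p = 0.0160) and not without it (0.50 ± 0.22, adjusted p = 0.0609). Traf1 did not pass without IRF5 KO unstimulated replicate 1 or 3 either. Ikbkb rose by 0.55 ± 0.16 on the log2 scale (adjusted p = 0.0178), or by 0.65 ± 0.16 (adjusted p = 0.00269) without replicate 3 of the LPS group, and did not pass without replicate 1 or 3 of the unstimulated IRF5 KO cells or replicate 1 or 2 of those given LPS with DMSO (adjusted p up to 0.0732).

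The kinases of the interferon branch did not pass the test in IRF5 KO cells after LPS. Ikbke read 100, 96.2 and 106 CPM before and 59.1, 65.5 and 138 CPM after LPS, a log2 difference of -0.20 ± 0.33 (adjusted p = 0.647), or -0.70 ± 0.31 (adjusted p = 0.0677) without replicate 3. Tbk1 read 82.1, 76.6 and 82.2 CPM before and 102, 96.7 and 93.4 CPM after LPS (log2 0.28 ± 0.13, adjusted p = 0.0963), or 0.31 ± 0.14 (adjusted p = 0.0621) without replicate 3. Tbk1 did pass without WT LPS defactinib replicate 2 or 3 (adjusted p = 0.00500 and 0.0392). The Tbk1 groups did not overlap, whereas those of Ikbke did. Chuk (0.04 ± 0.10), Ikbkg (-0.21 ± 0.11) and Traf3 (-0.07 ± 0.09) did not pass, with values of 0.13, -0.21 and -0.07 without replicate 3.

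The difference between the genotypes in the LPS response was tested as an interaction. With all libraries 3 of 10 genes passed, beside 17.1% of all tested genes, and 2 of 10 were called, beside 9.83%. The response was larger in WT for Ikbke by 2.07 ± 0.47 on the log2 scale (adjusted p = 0.00865), for Traf1 by 1.40 ± 0.39 (adjusted p = 0.0232) and for Tbk1 by 0.62 ± 0.18 (adjusted p = 0.0294). The Ikbke value includes a difference between the unstimulated cells, with means of 31.4 CPM in WT and 101 CPM in IRF5 KO. After LPS with DMSO the Ikbke means were 115 and 87.6 CPM. Tbk1 did not pass in 8 of 18 fits that left 1 library out, each of them a WT unstimulated library, WT LPS DMSO replicate 2 or 3, replicate 1 or 3 of unstimulated IRF5 KO, or replicate 2 of IRF5 KO LPS DMSO (adjusted p up to 0.0669). Traf1 did not pass in 6 of 18, those without WT unstimulated replicate 1 or 2, WT LPS DMSO replicate 2, replicate 2 of unstimulated IRF5 KO, or replicate 1 or 2 of IRF5 KO LPS DMSO (adjusted p up to 0.0636), or with no filter (adjusted p = 0.0718). With library size alone neither Traf1 (1.23, adjusted p = 0.0528) nor Tbk1 (0.48, adjusted p = 0.0593) passed. Without IRF5 KO LPS DMSO replicate 3, 6 of 10 genes passed and 4 were called, beside 46.7% and 23.6% of all tested genes. There the values were 2.56 ± 0.42 for Ikbke, 1.87 ± 0.30 for Traf1 and 0.59 ± 0.18 for Tbk1. In that fit Traf2 differed by 2.41 ± 0.21 (adjusted p = 7.13e-08), against 1.47 ± 0.52 (adjusted p = 0.0665) with all libraries, where DESeq2 and limma-voom did call it (adjusted p = 0.0219 and 0.0133). Map3k14 differed by 1.49 ± 0.32 (adjusted p = 0.00147), against -0.13 ± 0.78 (adjusted p = 0.928), and Traf6 by -0.98 ± 0.21 (adjusted p = 0.00115), against -0.61 ± 0.42 (adjusted p = 0.322). Chuk (-0.03 ± 0.15), Ikbkb (0.31 ± 0.23), Ikbkg (0.20 ± 0.15) and Traf3 (0.25 ± 0.13) passed in neither fit.

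**Figure D2:**
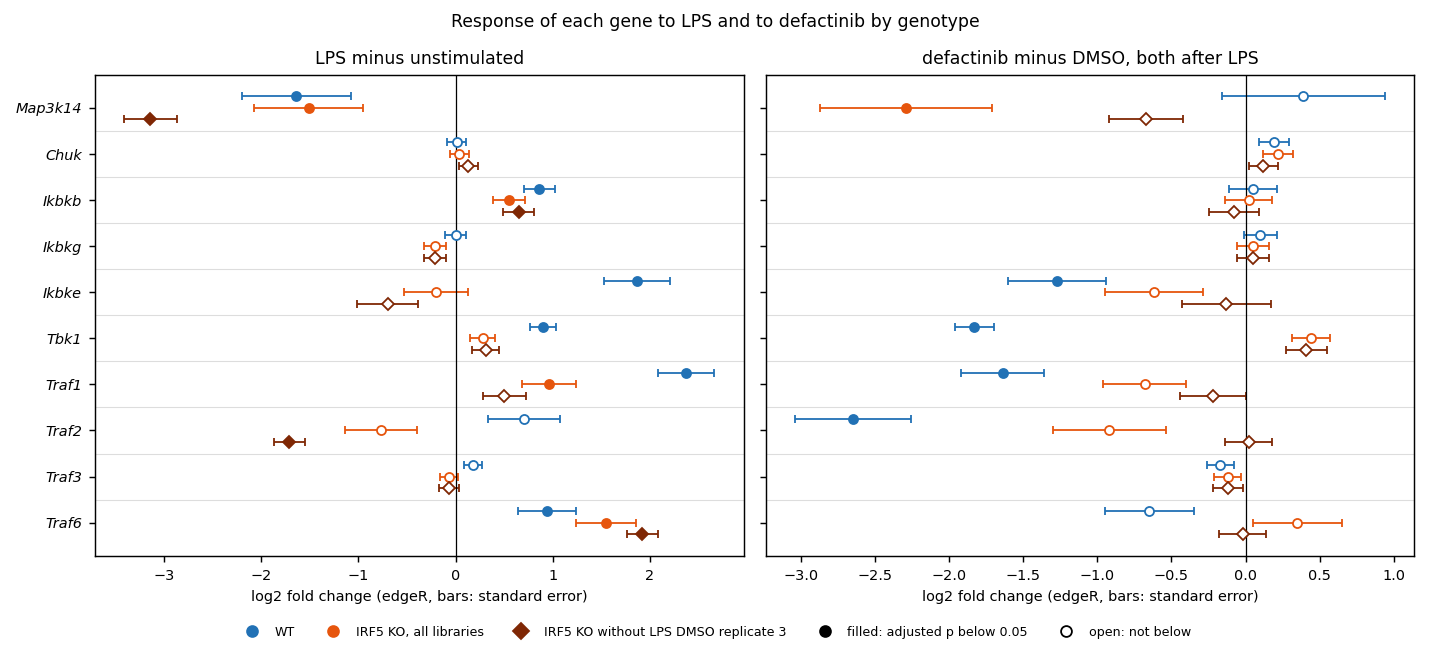
Log2 fold change (x axis) of each gene for LPS against unstimulated cells and for defactinib against DMSO after LPS, from the edgeR fit, with bars of 1 standard error and filled symbols for an adjusted p below 0.05. In WT cells Traf1, Traf2, Tbk1 and Ikbke lie left of 0 under defactinib (-1.64, -2.65, -1.83 and -1.27), and the IRF5 KO values for Map3k14, Traf1 and Traf2 shift when LPS DMSO replicate 3 is left out.

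The next comparison asked what defactinib changed in WT cells given LPS. Of the 10 genes 4 passed the test, beside 57.0% of all tested genes, and the same 4 were called, all lower, beside 29.1%. The median log2 difference was -0.41 for the 10 genes and 0.09 for all genes. The LPS DMSO libraries of this comparison are the same ones that enter the LPS comparison above.

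Traf2, whose promoter is printed above, fell the most of the 10. It read 66.2, 70.6 and 65.5 CPM with DMSO and 8.49, 9.29 and 14.4 CPM with defactinib. The defactinib libraries were also below every unstimulated WT library, and the decrease was 6.30-fold (log2 -2.65 ± 0.39, adjusted p = 5.54e-05). Tbk1 fell 3.55-fold, from 157, 170 and 171 CPM to 51.8, 33.5 and 54.8 CPM (log2 -1.83 ± 0.13, adjusted p = 4.24e-08). Its 3 defactinib libraries too were below every unstimulated WT library.

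Traf1 read 369, 452 and 372 CPM with DMSO and 95.5, 96.4 and 190 CPM with defactinib. The groups did not overlap, replicate 3 was the highest of the defactinib libraries, and Traf1 fell 3.12-fold (log2 -1.64 ± 0.28, adjusted p = 1.80e-04). Ikbke read 119, 156 and 69.0 CPM with DMSO and 40.4, 31.5 and 70.1 CPM with defactinib. Here the lowest DMSO library and the highest defactinib library, both replicate 3, were level, and Ikbke fell 2.42-fold (log2 -1.27 ± 0.33, adjusted p = 0.00468). These 4 genes passed in all 18 fits that left 1 library out, with the log2 change of Ikbke between -1.66 and -0.97. Without WT LPS defactinib replicate 3, the library of this group that stood apart, the log2 change was -2.03 for Traf1 and -1.66 for Ikbke.

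Traf6 read 86.8, 97.0 and 95.2 CPM with DMSO and 72.0, 39.5 and 65.6 CPM with defactinib, with no overlap, and its log2 difference of -0.65 ± 0.30 did not pass the test (adjusted p = 0.0741, or 0.0252 in a fit of these 2 groups alone). Without IRF5 KO LPS DMSO replicate 3 it passed (-0.66 ± 0.14, adjusted p = 6.75e-04). Map3k14 read 20.8, 24.7 and 19.6 CPM with DMSO and 16.4, 30.5 and 38.6 CPM with defactinib (log2 0.39 ± 0.55, adjusted p = 0.559). The subunits of the canonical complex did not pass the test either. Their log2 differences were 0.19 ± 0.10 for Chuk (0.28, adjusted p = 0.0311, without WT LPS defactinib replicate 2), 0.05 ± 0.16 for Ikbkb and 0.10 ± 0.11 for Ikbkg, and that of Traf3 was -0.17 ± 0.09 (adjusted p = 0.129, or 0.0375 without WT LPS defactinib replicate 3).

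In IRF5 KO cells 1 of 10 genes passed for defactinib against DMSO after LPS and was called, beside 3.36% of all tested genes that passed and 0.919% that were called. That gene was Map3k14, with 11.5, 11.1 and 81.4 CPM under DMSO and 7.27, 6.83 and 7.20 CPM under defactinib. All defactinib libraries were below all DMSO libraries, and the log2 change was -2.29 ± 0.58 (adjusted p = 0.0474). Leaving out replicate 3 of the DMSO group gave -0.67 ± 0.25 (adjusted p = 0.115). In that edgeR fit 0 of the 10 genes passed, beside 7.83% of all tested genes, and 2, Map3k14 and Tbk1, had an unadjusted p under 0.05, as did 3688 of the 16037 genes tested in it. The Map3k14 call was also lost with no filter, with limma-voom and in a fit of these 2 groups alone (adjusted p = 0.121, 0.153 and 0.319). Over the fits that left 1 library out it was kept in 5 of 18, those without any 1 of the WT LPS defactinib libraries or without IRF5 KO LPS DMSO replicate 1 or 2.

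Among the genes that defactinib lowered in WT cells, Traf2 in IRF5 KO cells read 14.4, 12.6 and 50.7 CPM with DMSO and 13.5, 14.9 and 12.6 CPM with defactinib. Its log2 difference was -0.92 ± 0.38 (adjusted p = 0.157), and 0.02 ± 0.16 (adjusted p = 0.955) without DMSO replicate 3. It passed without DMSO replicate 1 (-1.23, adjusted p = 0.0460) or 2 (-1.27, adjusted p = 0.0323), fits in which replicate 3 remained. Tbk1 read 102, 96.7 and 93.4 CPM with DMSO and 134, 131 and 133 CPM with defactinib, so that its defactinib libraries were all higher, but the log2 difference of 0.44 ± 0.13 did not pass the edgeR test (adjusted p = 0.0660). It passed with DESeq2 (adjusted p = 0.0218) and in the edgeR fits without WT LPS defactinib replicate 2 or 3 (adjusted p = 0.00415 and 0.0328). Traf1 read 110, 111 and 238 CPM with DMSO and 94.9, 97.6 and 93.8 CPM with defactinib (log2 -0.68 ± 0.28, adjusted p = 0.153). Ikbke read 59.1, 65.5 and 138 CPM with DMSO and 58.9, 58.8 and 52.8 CPM with defactinib (log2 -0.62 ± 0.33, adjusted p = 0.269). Without DMSO replicate 3 these differences were 0.41 ± 0.14 for Tbk1, -0.22 ± 0.22 for Traf1 and -0.13 ± 0.30 for Ikbke. The other 5 genes did not pass, with log2 differences of 0.22 for Chuk, 0.02 for Ikbkb, 0.05 for Ikbkg, -0.12 for Traf3 and 0.35 for Traf6, or 0.12, -0.08, 0.05, -0.12 and -0.02 without DMSO replicate 3.

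The interaction of genotype with defactinib passed for 3 of 10 genes, all of them called, beside 37.0% of all tested genes that passed and 22.8% that were called. The effect in WT minus the effect in IRF5 KO was -2.27 ± 0.18 on the log2 scale for Tbk1 (adjusted p = 3.04e-07), -1.73 ± 0.53 for Traf2 (adjusted p = 0.0186) and 2.69 ± 0.80 for Map3k14 (adjusted p = 0.0159). Traf2 did not pass without WT LPS defactinib replicate 1 (adjusted p = 0.0504), with library size alone, with no filter or in a fit of the 4 groups alone (adjusted p from 0.0608 to 0.0680). Map3k14 did not pass with no filter, limma-voom or the 4 groups alone (adjusted p from 0.0504 to 0.0762). Without IRF5 KO LPS DMSO replicate 3, 6 of 10 passed and 5 were called, beside 54.0% and 31.6% of all tested genes. In that fit the values were -2.24 ± 0.19 for Tbk1, -2.68 ± 0.21 for Traf2, 1.06 ± 0.33 for Map3k14 (adjusted p = 0.0122), -1.43 ± 0.30 for Traf1 (adjusted p = 7.98e-04), -1.14 ± 0.41 for Ikbke (adjusted p = 0.0305) and -0.64 ± 0.21 for Traf6 (adjusted p = 0.0177). With all 18 libraries the last 3 genes did not pass, at -0.96 ± 0.39 for Traf1 (adjusted p = 0.0652), -0.65 ± 0.47 for Ikbke (adjusted p = 0.294) and -1.01 ± 0.42 for Traf6 (adjusted p = 0.0739). Traf1 also passed without WT LPS defactinib replicate 3, and Traf6 without replicate 1 or 2 of IRF5 KO LPS DMSO (adjusted p = 0.00612, 0.0412 and 0.0437). With all 18 libraries both passed under DESeq2 (adjusted p = 0.0397 for Traf1 and 0.0484 for Traf6) and limma-voom (0.0264 and 0.0429). Chuk (-0.03 ± 0.15), Ikbkb (0.03 ± 0.23), Ikbkg (0.04 ± 0.15) and Traf3 (-0.05 ± 0.13) passed in neither fit.

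The genotypes were also compared directly within each treatment. In unstimulated cells 2 of 10 genes passed, beside 15.3% of all tested genes, and 1 was called, beside 7.31%. Ikbke was lower in WT, at 32.9, 31.2 and 30.2 CPM against 100, 96.2 and 106 CPM in IRF5 KO. The 2 genotypes were 3.21-fold apart with no overlap (log2 WT minus IRF5 KO -1.68 ± 0.34, adjusted p = 0.00296), and the unstimulated IRF5 KO libraries lay inside the range of WT LPS DMSO, 69.0 to 156 CPM. Mast cell and basophil markers summed to 11.58 to 12.97 CPM in unstimulated WT and 57.53 to 70.76 CPM in unstimulated IRF5 KO libraries over 7 genes, of which Gata2, Kit and Hdc had a mean of 1 CPM or more in IRF5 KO. The defining markers Mcpt8, Cpa3 and Ms4a2 had means of 0.146, 0.363 and 0.0894 CPM there, and none of the 7 was at 0 in all 3 libraries. Macrophage markers summed to 13574 to 14070 CPM in unstimulated WT and 16758 to 21271 CPM in unstimulated IRF5 KO libraries. The part of either marker list in the Ikbke difference was not tested, and in bulk RNA fewer cells of a type and less RNA per cell cannot be told apart. Ikbkg was slightly lower in WT, at 61.2 to 68.4 CPM against 74.1 to 90.0 CPM (log2 -0.34 ± 0.11, adjusted p = 0.0391). Ikbkg did not pass without any 1 WT unstimulated library or replicate 1 or 3 of unstimulated IRF5 KO (adjusted p up to 0.183), or with no filter (adjusted p = 0.0607). The other 8 genes did not pass, with log2 differences from -0.55 ± 0.55 (Map3k14) to 0.15 ± 0.13 (Tbk1). In a fit of these 2 groups alone Map3k14 (-0.54), Ikbkb (-0.16), Traf3 (-0.21) and Tbk1 (0.16) passed (adjusted p = 0.00351, 0.0204, 0.0115 and 0.0220).

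After LPS with DMSO 3 of 10 genes passed between the genotypes, beside 52.2% of all tested genes, and 2 were called, beside 25.8%. Traf1 (398 ± 46.7 CPM in WT against 153 ± 73.5 in IRF5 KO, SD, n = 3) was 2.59-fold higher in WT (log2 1.37 ± 0.28, adjusted p = 9.07e-04), and 1.84 ± 0.23 higher on the log2 scale without IRF5 KO replicate 3. Traf2 (67.4 ± 2.77 against 25.9 ± 21.5 CPM) was 2.60-fold higher (log2 1.38 ± 0.38, adjusted p = 0.00694), and 2.32 ± 0.16 higher on the log2 scale without IRF5 KO replicate 3. In a fit of these 2 groups alone Traf2 did not pass (adjusted p = 0.105). Tbk1 (166 ± 7.74 against 97.4 ± 4.43 CPM) was 1.70-fold higher (log2 0.77 ± 0.13, adjusted p = 1.86e-04), or 0.74 ± 0.14 higher on the log2 scale without that library. For these 3 genes no IRF5 KO library reached the lowest WT library, and the share of all tested genes without overlap was not counted. Without IRF5 KO replicate 3 there were 6 of 10 genes past the test, beside 65.5% of all tested genes, with Map3k14 (0.94 ± 0.25, adjusted p = 0.00374) and Ikbke (0.88 ± 0.31, adjusted p = 0.0233) higher in WT and Traf6 lower (-0.98 ± 0.16, adjusted p = 3.61e-05). With it, the Map3k14 difference had the opposite sign and did not pass (-0.68 ± 0.55, adjusted p = 0.315). Ikbke (0.39 ± 0.33) and Traf6 (-0.60 ± 0.30) did not pass with it either. Chuk, Ikbkb, Ikbkg and Traf3 passed in neither fit, with log2 differences from -0.14 (Ikbkg) to 0.14 (Ikbkb) with all libraries.

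After LPS and defactinib 3 of 10 genes passed, all called, beside 36.3% of all tested genes that passed and 17.3% that were called. Tbk1 was 2.84-fold lower in WT, at 46.7 ± 11.5 against 132 ± 1.76 CPM (log2 -1.50 ± 0.13, adjusted p = 3.50e-07). Traf6 was 3.06-fold lower in WT, at 59.0 ± 17.2 against 181 ± 3.37 CPM (log2 -1.61 ± 0.31, adjusted p = 7.39e-04). Map3k14 was 4.01-fold higher in WT, at 28.5 ± 11.2 against 7.10 ± 0.234 CPM (log2 2.00 ± 0.58, adjusted p = 0.0136, or 0.0508 with no filter). These 3 did not overlap between the genotypes, and the share of all tested genes without overlap was not counted. All 3 calls held in all 18 fits that left 1 library out. Traf2 was low in both genotypes, at 8.49, 9.29 and 14.4 CPM in WT and 13.5, 14.9 and 12.6 CPM in IRF5 KO, with overlap and a log2 difference of -0.35 ± 0.38 (adjusted p = 0.493). Without IRF5 KO LPS DMSO replicate 3, which is outside this comparison, Traf2 passed (-0.36 ± 0.14, adjusted p = 0.0419). The other 6 genes did not pass, with log2 differences from -0.26 ± 0.33 (Ikbke) to 0.42 ± 0.28 (Traf1).

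The mean level of Tbk1 was lowest in WT LPS defactinib (46.7 CPM), followed by unstimulated IRF5 KO (80.3) and unstimulated WT (89.0), IRF5 KO given LPS with DMSO (97.4) or with defactinib (132), and WT LPS DMSO (166 CPM). No neighbouring groups in that order overlapped. For Traf2 the 3 lowest groups, WT LPS defactinib (10.7 CPM) and IRF5 KO given LPS with defactinib (13.7) or with DMSO (25.9), overlapped with their neighbours, as did the last of them with WT unstimulated (41.4). IRF5 KO unstimulated (44.2) did not overlap with WT unstimulated but lay below IRF5 KO LPS DMSO replicate 3 at 50.7 CPM. WT LPS DMSO (67.4 CPM) lay above every library of the other groups. For Ikbke, WT unstimulated (31.4 CPM), WT LPS defactinib (47.4) and IRF5 KO LPS defactinib (56.9) overlapped with their neighbours. The last of these did not overlap with the next group, IRF5 KO cells given LPS with DMSO (87.6), although WT LPS defactinib replicate 3 at 70.1 CPM reached into the latter. Unstimulated IRF5 KO cells (101) and WT LPS DMSO (115 CPM) overlapped with their neighbours. For Chuk all 5 neighbouring pairs of groups overlapped.

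Ratios within a library compare related proteins' transcripts and do not depend on scaling. The RPKM ratio of Ikbke to Tbk1, the 2 kinases that share substrates, was 0.153 ± 0.00766 in unstimulated WT and 0.545 ± 0.0145 in unstimulated IRF5 KO cells. After LPS with DMSO it was 0.328, 0.398 and 0.175 in WT and 0.251, 0.294 and 0.642 in IRF5 KO, so the groups overlapped. After LPS and defactinib it was 0.338, 0.408 and 0.555 in WT and 0.191, 0.195 and 0.173 in IRF5 KO, with no overlap and in the opposite order from unstimulated cells. The ratio of Traf1 to Traf2, which form a joint complex at TNF receptors, was 1.08 ± 0.0493 in unstimulated WT and 1.03 ± 0.0912 in unstimulated IRF5 KO cells. It was 3.40 ± 0.257 after LPS with DMSO and 6.72 ± 0.843 after LPS and defactinib in WT, and in IRF5 KO 4.09 ± 1.23 (4.44, 5.11 and 2.72) and 4.05 ± 0.246 in the same order. Within WT cells the 3 groups did not overlap for this ratio. The ratio of Chuk to Ikbkb was 3.64 ± 0.115 in unstimulated WT and 2.06 ± 0.335 after LPS with DMSO.

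**Figure D3:**
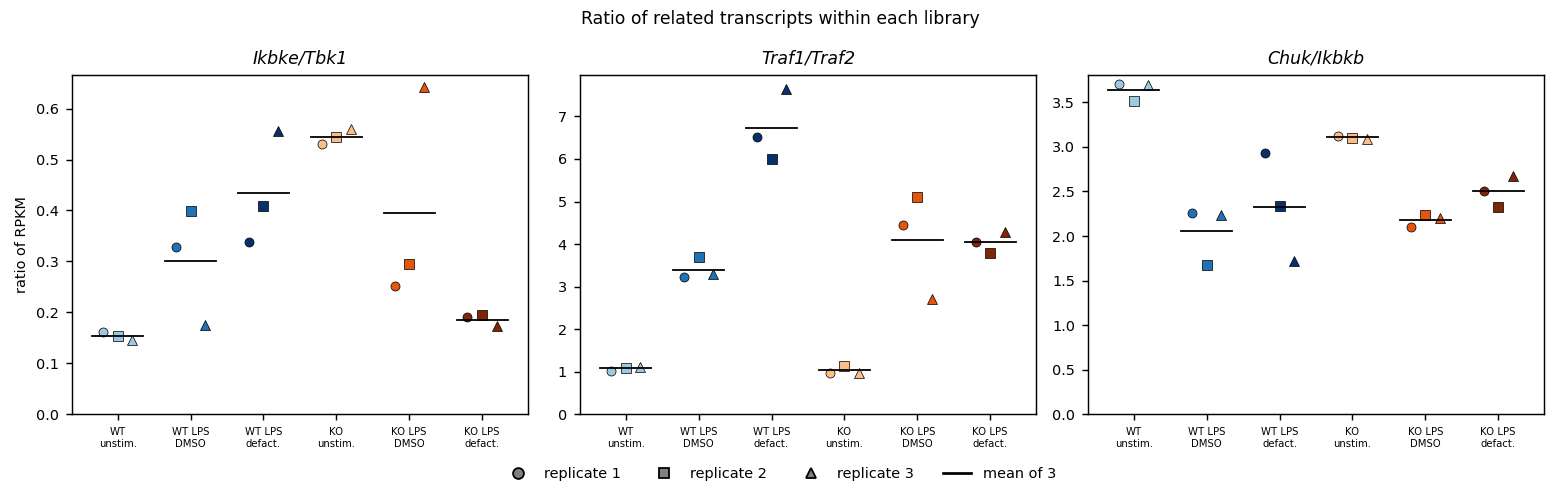
Ratio of RPKM (y axis, linear, from 0) of Ikbke to Tbk1, Traf1 to Traf2 and Chuk to Ikbkb in each library by group (x axis), with 1 symbol per replicate and the mean of 3 as a line. The Ikbke to Tbk1 ratio is 0.153 in unstimulated WT and 0.545 in unstimulated IRF5 KO cells, and after defactinib the WT libraries (0.338 to 0.555) lie above the IRF5 KO libraries (0.173 to 0.195).

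The other genes of the pathway were taken as 5 lists by role, 54 symbols of which 53 were in the table and tested. Their counts are read beside the share of all tested genes that passed in either direction. Genes named from a list are among its 2 highest by mean RPKM or were called for both LPS and defactinib in WT. For the latter, a change in both WT comparisons was fixed by the choice, and both use the same LPS DMSO libraries. After LPS in WT 29 of the 53 rose and 12 fell, beside 41.8% of all genes, with a median log2 change of 0.71 against 0.00 for all genes. In IRF5 KO cells 12 rose and 13 fell, beside 37.5%, or 12 and 26 without LPS DMSO replicate 3, beside 58.3%. With defactinib in WT cells 4 were higher and 34 lower, beside 57.0%, with a median of -0.92 against 0.09 for all genes. With defactinib in IRF5 KO cells 2 passed, both lower, beside 3.36%, or 5 without LPS DMSO replicate 3, beside 7.83%, of which 1 was lower and 4 were higher.

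The substrates of the IKK complexes, IκB and NF-κB proteins, all rose with LPS in WT cells (8 of 8, beside 41.8% of all genes that passed) and all fell with defactinib (8 of 8, beside 57.0%). In IRF5 KO cells 5 of 8 passed with LPS, all higher, beside 37.5% of all genes, or 6 without LPS DMSO replicate 3, beside 58.3%, of which 4 were higher and 2 lower. Nfkbia, which encodes IκBα, rose by 2.80 on the log2 scale in WT (adjusted p = 1.98e-07) and by 2.56 in IRF5 KO (adjusted p = 3.81e-06), and fell by 0.84 with defactinib in WT (adjusted p = 0.00425). Rela, the p65 subunit, rose by 1.21 in WT (adjusted p = 1.02e-04) and fell by 1.66 with defactinib (adjusted p = 4.97e-06), while its change with LPS in IRF5 KO was -0.07 (adjusted p = 0.786). Nfkb2, the precursor that the NIK pathway processes, rose by 2.03 with LPS and fell by 1.15 with defactinib in WT (adjusted p = 1.44e-06 and 1.97e-04).

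Of the scaffolds and adaptors of TBK1 and IKKε, 9 genes tested, 4 rose and 4 fell with LPS in WT, beside 41.8% of all genes, and 2 were higher and 4 lower with defactinib, beside 57.0%. The 3 scaffold genes named because they were called in both comparisons, Tank, Azi2 and Optn, rose with LPS in WT. Their log2 changes were 1.84, 1.21 and 2.23 (adjusted p = 2.91e-08, 7.83e-04 and 3.81e-05). With defactinib their log2 changes were -1.85, -1.65 and -2.61 (adjusted p = 2.22e-08, 4.73e-05 and 8.63e-06). Irf7, a substrate of both kinases, rose by 3.79 with LPS in WT (adjusted p = 0.0194) and differed by 0.42 with defactinib (adjusted p = 0.756). Tmem173, which encodes STING, fell by 0.42 with LPS in WT (adjusted p = 0.00257) and rose by 0.51 with defactinib (adjusted p = 3.75e-04).

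Among 16 ubiquitin ligases and TAK1 complex genes 8 rose and 3 fell with LPS in WT, beside 41.8% of all genes, and 9 fell with defactinib, beside 57.0%, a share near that of all genes. Peli1, a ligase of the TLR pathway, rose by 4.30 on the log2 scale with LPS in WT (adjusted p = 4.66e-12) and by 2.88 in IRF5 KO (adjusted p = 1.07e-09), and fell by 3.22 with defactinib in WT (adjusted p = 1.18e-10). Birc2 and Birc3, the ligases that Traf2 brings to NIK, rose by 1.45 and 1.08 with LPS in WT (adjusted p = 6.14e-05 and 0.00178) and fell with defactinib, with log2 changes of -1.36 and -1.67 (adjusted p = 9.01e-05 and 4.08e-05). Among 9 deubiquitinases and A20-binding proteins 7 rose and 1 fell with LPS in WT and 8 fell with defactinib, beside the same shares of all genes. Tnfaip3, which encodes A20, rose by 3.76 in WT and 5.53 in IRF5 KO (adjusted p = 6.82e-05 and 4.24e-05), and its log2 difference with defactinib in WT was 0.44 (adjusted p = 0.467). Among 11 further TRAF family and TRAF-binding genes 2 rose and 4 fell with LPS in WT and 2 rose and 5 fell with defactinib, beside the same shares. Traf3ip3 moved in the opposite direction from Traf1 in WT, with log2 changes of -1.79 with LPS and 1.96 with defactinib (adjusted p = 6.50e-07 and 2.46e-07).

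**Figure D4:**
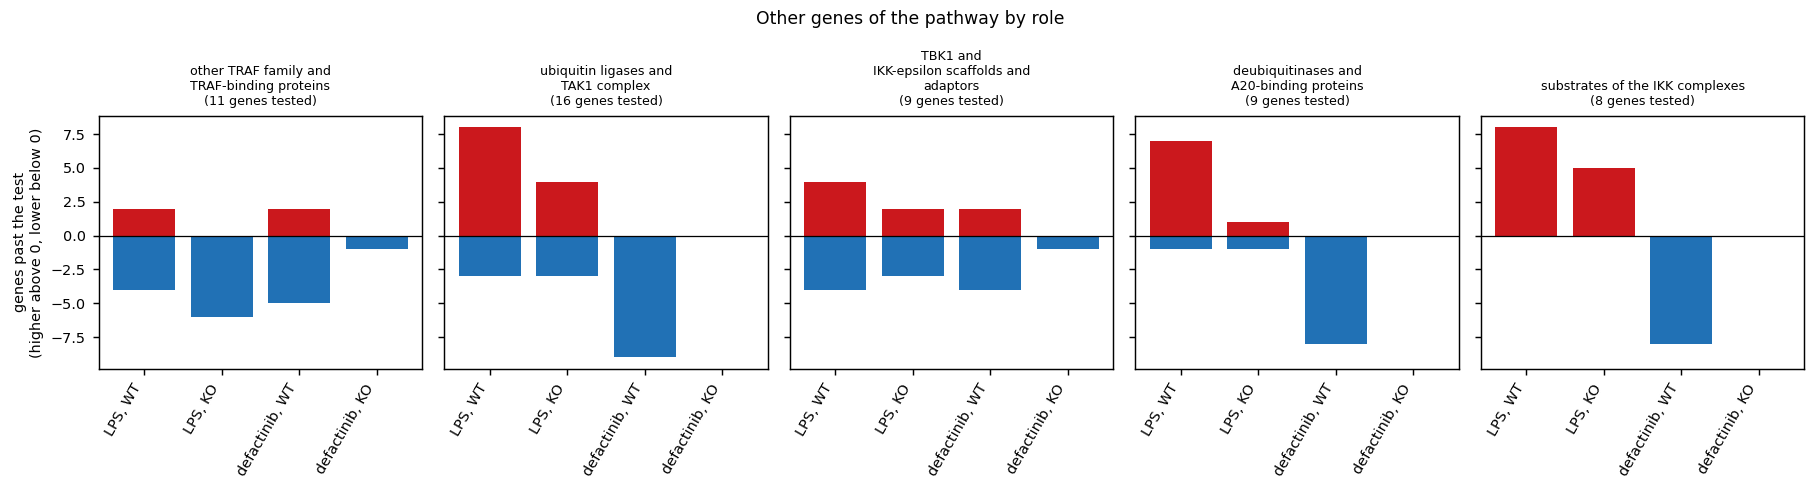
Number of genes past the edgeR test (false discovery rate below 0.05) in each of the 5 lists, higher above 0 and lower below 0 (y axis), for LPS and for defactinib in each genotype (x axis). All 8 IKK substrates are higher with LPS and lower with defactinib in WT, and with defactinib in IRF5 KO 2 of all 53 genes are past the test.

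The genes most like each member were found by Pearson's r of log2 CPM over the 18 libraries, among the 8459 genes whose mean log2 CPM reached 3. The 18 libraries share 6 groups and r is given as a description. Traf6 was most like Ythdc1 (0.994), Ptger4 (0.982) and Rbm39 (0.981), Traf2 most like Bcorl1 (0.991), Zfp260 (0.989) and Snx20 (0.987), and Traf1 most like Gbp5 (0.989). Tbk1 was most like Appbp2 (0.986), Map3k14 most like Rnf220 (0.983), Ikbkb most like Psme2b (0.969) and Ikbke most like Il2ra (0.931). For the genes that varied little the highest values were lower, at 0.902 for Chuk with Odr4, 0.804 for Traf3 with Kmt2a and 0.778 for Ikbkg with Utp11.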

How the data were processed

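The authors sequenced paired-end mRNA libraries, mapped them to mm10 with STAR and counted uniquely mapped pairs over annotated genes on the reverse strand with featureCounts (v1.6.3 in the table header). The deposited values are raw counts per gene, not normalized, with the union exon length. The 18 library columns were matched to GEO titles, and columns marked UT were taken as the samples labelled DMSO at 0 h, which match in genotype and replicate.

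Counts were tested with edgeR 4.0.16 (R 4.3.3): filterByExpr, TMM, quasi-likelihood F test, 1 mean per group over all 18 libraries, Benjamini-Hochberg adjustment over 15663 genes. The study used DESeq2. A gene passed below a false discovery rate of 0.05 and was called with a fold change above 2 as well. SE is the log2 fold change divided by the square root of F. CPM and RPKM are TMM-scaled. The script was tested on simulated counts. Alternatives were DESeq2 1.42.0, limma-voom (limma 3.58.1), library size or DESeq2 size factors, no filter, 5 CPM in 3 libraries, a replicate block, only the groups compared, and each library left out. No 2 replicates agreed within sampling noise (chi-square per gene 2.33 or more), but pairs differed widely. The lowest values were 2.33 for IRF5 KO LPS DMSO replicates 1 and 2 and 3.82 for WT unstimulated replicates 1 and 2. Replicates 1 and 3 gave 4.79 in IRF5 KO LPS defactinib and 7.09 in IRF5 KO unstimulated, and all other pairs gave 18.2 to 441. Fits without IRF5 KO LPS DMSO replicate 3 keep only the closest of these pairs in that group.

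All 10 members were to be named in every comparison, and those that did not pass are in part given by their range. Irf5 and Ptk2b were checks of the design. From each pathway list the 2 tested genes with the highest mean RPKM and those called for both LPS and defactinib in WT could be named, and 3 like genes per member. Members and lists were chosen with earlier results of these data known. GENCODE coordinates of GRCm38 matched the table.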

Additional observations from a re-analysis of the deposited data

Results flagged for a closer look

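In the edgeR interaction tests with all 18 libraries, 3 of the 10 genes passed for LPS, beside 17.1% of all tested genes, and 3 for defactinib, beside 37.0%. The LPS response of Ikbke was larger in WT by 2.07 on the log2 scale, with all 3 WT LPS libraries above the unstimulated ones and 2 of 3 IRF5 KO LPS libraries below them. Ikbke already differed between unstimulated cells, at 31.4 CPM in WT and 101 CPM in IRF5 KO. After LPS with DMSO its genotype difference did not pass (log2 0.39, adjusted p = 0.338), though it did without IRF5 KO replicate 3 (0.88, adjusted p = 0.0233). The LPS response of Traf1 was larger in WT by 1.40 and that of Tbk1 by 0.62. The defactinib effect in WT minus that in IRF5 KO was -2.27 for Tbk1, with all 3 WT libraries lower and all 3 IRF5 KO libraries higher than with DMSO. It was -1.73 for Traf2 and 2.69 for Map3k14. The last value was 1.06 without IRF5 KO LPS DMSO replicate 3, and the part of that library's state in it was not tested further.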

How the results depend on the processing

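Among 90 gene-by-comparison values per alternative, none changed its call under DESeq2's size factors and none reversed under DESeq2, limma-voom, the filters or the replicate block. Library size alone moved the median log2 change of all genes to -0.38 for LPS and 0.29 for defactinib in WT, and Chuk with LPS in WT to -0.37 (adjusted p = 0.00340). Left-out libraries reversed 2 values, both Map3k14 without IRF5 KO LPS DMSO replicate 3: WT against IRF5 KO after LPS with DMSO (-1.12 to 0.94 over the 18 libraries left out) and the interaction with LPS (-0.57 to 1.49).

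The number of members called changed as follows. For LPS in WT it was 3, 6 without the fold threshold, 2 with no filter, and 2 to 3 with 1 library left out. For LPS in IRF5 KO it was 2, 4 without the fold threshold, 3 with limma-voom, 1 with no filter and 0 with only the groups compared. With 1 library left out it was 1 to 3. For defactinib in WT it was 4, and 3 to 4 with 1 library left out. For defactinib in IRF5 KO it was 1, 0 with no filter, limma-voom, the replicate block or only the groups compared, and 0 to 2 with 1 library left out. For WT against IRF5 KO it was 1 unstimulated, 2 without the fold threshold. After LPS with DMSO it was 2, 3 without the fold threshold and 1 with only the groups compared. After LPS with defactinib it was 3, or 2 with no filter. For the interaction with LPS it was 2, 1 with library size alone or no filter, and 1 to 4 with 1 library left out. It was 3 with DESeq2, limma-voom, the replicate block or no fold threshold. For the interaction with defactinib it was 3, 1 with no filter or only the groups compared, and 2 to 5 with 1 library left out. It was 4 with DESeq2, limma-voom or the replicate block and 2 with library size alone. The cause was not tested, except that fits on the groups compared use fewer samples.

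Same-numbered replicates did not deviate together (45 pairs, median r 0.00455, 4 above 0.1), so the numbers were not taken as pairs. The replicate block changed 3 of the 90 calls: Map3k14 with defactinib in IRF5 KO was lost (-2.00, adjusted p = 0.0718), and the interactions of Traf2 with LPS (adjusted p = 0.0399) and of Traf1 with defactinib (-1.08, adjusted p = 0.0290) were gained.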
